A study of Mus musculus with 6 samples.

Results

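Axon guidance ligands and receptors are described here in brain endothelial cells of mice labelled WT and mice labelled GLUT1EC-/-. Members were matched by gene symbol: all semaphorins of classes 3 to 7, plexins, neuropilins, Eph receptors, ephrins, Slits, Robos, netrins and Unc5 receptors, without Efnb2 and Sema3g, that had 10 or more counts summed over the 6 libraries. Of 23329 gene symbols, 69 matched, 2 were left out by name, and 65 of the remaining 67 had enough counts. The 65 members were 33 ligands, 31 receptors and Unc5cl, which matches the letters of the Unc5 family but encodes a signalling protein and no netrin receptor. Epha6 and Unc5d had 0 counts in every library, and 3 counts would have been 0.0739 to 0.0928 CPM (the count scaled to library size), by library.

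The cells came from the brains of 8-week-old C57BL/6 mice, were isolated by MACS (sorting with magnetic beads) and were lysed without culture. The groups were 3 libraries from wild-type littermates and 3 labelled GLUT1EC-/-, a label for endothelial knockout of the glucose carrier GLUT1 (gene Slc2a1), each library with its own animal number. The Slc2a1 count did not separate these groups (values below). The labels name neither the Cre driver nor the deleted exons, and give no treatment. The stated aim was to find transcripts that differ between knockouts and controls.

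Axon guidance molecules were first described as cues that steer growing nerve fibres, and blood vessels use the same families. Secreted class 3 semaphorins bind neuropilins, which signal through plexins; Sema3e binds Plxnd1 directly, and the other semaphorins are mostly bound to the membrane and contact plexins themselves. Ephrins bind Eph receptor tyrosine kinases on neighbouring cells, Slits bind Robo receptors, and netrins bind Dcc, neogenin and Unc5 receptors. Nrp1 is also a co-receptor of VEGF receptor 2, Ephb4 marks veins, and Robo4 and Unc5b are known for their expression in endothelium.

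Total counts were 31874662 to 39424384 per library, and 16705 to 17257 genes had counts. The targeted gene Slc2a1 was at 3984, 4479 and 4172 CPM in WT 1 to 3 and at 3735, 5414 and 3893 CPM in GLUT1EC-/- 1 to 3 (edgeR log2 fold change 0.05, SE 0.18, adjusted p = 0.921). These ranges overlap, so the count gives no check of the genotype labels, and every direction below is between libraries as labelled; "labelled knockouts" are the libraries labelled GLUT1EC-/-. GLUT1EC-/- 2 stood apart from the rest: it held the highest or the lowest value of the 6 libraries for 68.0% of all tested genes, against 18.8% to 33.2% for each of the other 5. For the tested members this share was 71.9%, 41 of 57, so its values are given singly for the members described in full. The defining endothelial markers were high in all libraries, with a summed level of the 16 listed of 22057 to 23564 CPM in WT. It was 21950, 26088 and 21846 CPM in GLUT1EC-/- 1 to 3. The single markers went both ways: 6 were higher and 10 lower by value, and 0 passed the test between genotypes (1.31% of all genes). The groups did not overlap for 3 higher and 3 lower markers (11.7% and 11.2% of all genes). The samples are bulk RNA, so fewer cells of a type and less RNA per cell cannot be told apart.

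The members spanned a wide range of levels in these bulk preparations, which also held markers of other cells (given at the end). Of the 65 members, 48 had a mean of at least 1 CPM over the 6 libraries, 31 at least 10 CPM and 16 at least 100 CPM. To compare genes, levels were divided by the annotated exon length (CPM per kb). Sema7a, a membrane-anchored semaphorin, led with a mean of 406 CPM per kb, followed by Robo4 at 133 and the ephrin receptor Epha2 at 80.4. These 3 did not overlap with their neighbours in the order across the 6 libraries. Next came Sema3c at 48.4, Efna1 at 43.5, Plxnd1 at 43.3, Ephb4 at 42.9 and Sema4c at 40.5 CPM per kb, whose ranges overlapped. Plxna2, Unc5b, Ntn1, Sema6b, Nrp1, Ntn4 and Sema6a followed between 28.6 and 21.1 CPM per kb, again without gaps between their ranges. At the other end, 17 members had a mean under 1 CPM, among them Robo1, Robo2, Robo3, Slit1, Sema3a, Sema3d and Sema3e. In the order of all 65 members, 60 of the 64 neighbouring pairs had overlapping ranges.

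**Figure D1:**
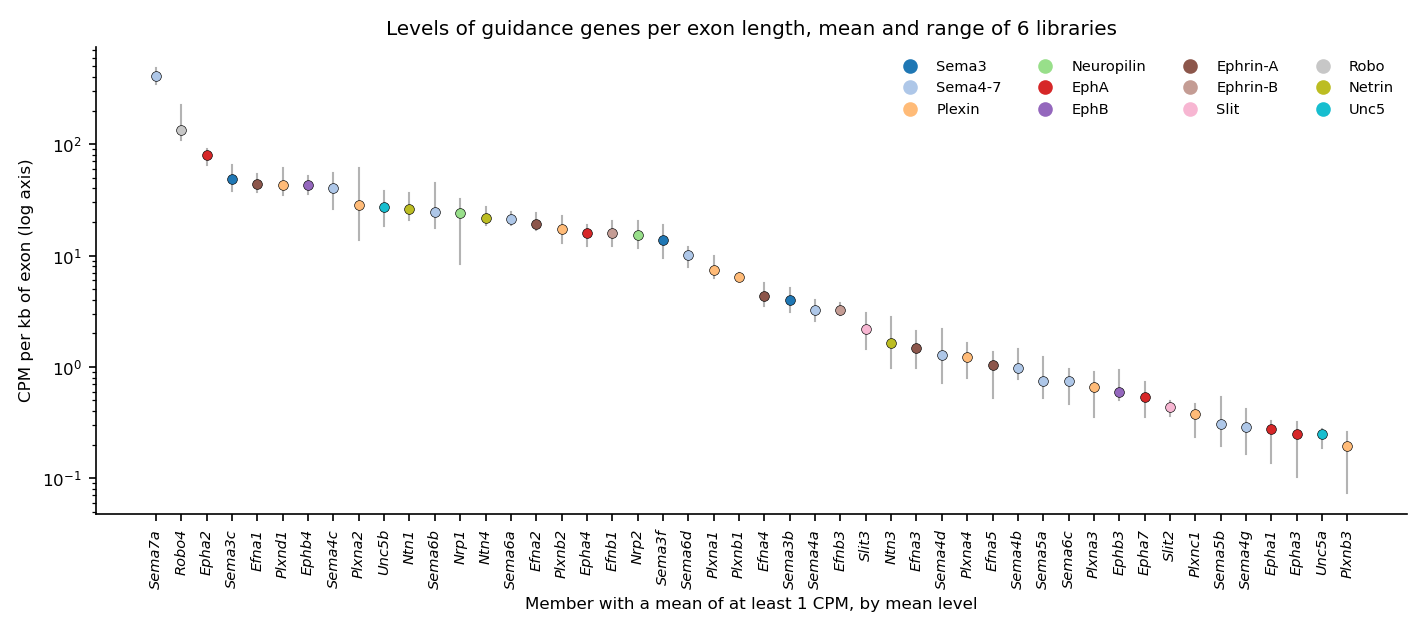
Mean level of each member with a mean of at least 1 CPM, in CPM per kb of exon on a log axis, coloured by family; grey lines run from the lowest to the highest of the 6 libraries. Sema7a (406 CPM per kb), Robo4 (133) and Epha2 (80.4) stand above the rest.

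The promoters of 3 members are shown, none of which passed the test between genotypes: Sema7a is the most abundant member, Plxna2 had the largest fitted difference on the higher side, and Plxnd1 is an abundant receptor that was lower in all 3 libraries labelled GLUT1EC-/-. RefSeq (GRCm38.p6) held an upstream sequence for 57 of the 65 members, and none for Sema3f. Each window runs 5′ to 3′ on the gene's strand over 240 bases, from 250 to 11 bases before the start that RefSeq annotates. For Plxna2 that start lies inside the gene as GENCODE annotates it, downstream of the start of the gene span given below. Sema7a lies at chr9:57939862-57940101 (plus strand), Plxna2 at chr1:194619579-194619818 (plus strand) and Plxnd1 at chr6:115995016-115995255 (minus strand). Capitals mark the GC box GGGCGG on either strand.
Sema7a: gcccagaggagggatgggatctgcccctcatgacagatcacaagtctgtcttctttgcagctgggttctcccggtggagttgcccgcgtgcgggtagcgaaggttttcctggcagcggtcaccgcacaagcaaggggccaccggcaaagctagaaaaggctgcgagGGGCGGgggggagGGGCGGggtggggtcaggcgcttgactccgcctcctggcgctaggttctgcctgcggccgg
Plxna2: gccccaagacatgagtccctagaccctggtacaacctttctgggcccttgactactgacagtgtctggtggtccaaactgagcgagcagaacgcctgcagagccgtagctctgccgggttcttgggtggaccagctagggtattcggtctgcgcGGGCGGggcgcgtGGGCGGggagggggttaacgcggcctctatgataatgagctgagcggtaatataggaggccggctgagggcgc
Plxnd1: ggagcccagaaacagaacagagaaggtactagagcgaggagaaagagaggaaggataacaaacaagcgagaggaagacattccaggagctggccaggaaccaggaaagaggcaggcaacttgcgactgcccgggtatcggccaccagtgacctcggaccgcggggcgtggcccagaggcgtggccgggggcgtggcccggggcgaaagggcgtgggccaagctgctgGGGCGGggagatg
The GC box occurred in 2, 2 and 1 copies, and 31.3% of all 32851 annotated windows of this length held at least 1. The E-box CACGTG (5.69% of all windows) and the letters CCGGAA, the core of ETS factor motifs (11.2%), were searched on both strands and were in none of the 3 windows. The GC content was 66.2%, 62.1% and 64.2%.

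No member passed the test between genotypes. Of the 65 members, 57 had enough counts to be tested, and 0 were higher and 0 lower at an adjusted p under 0.05 (edgeR quasi-likelihood test, Benjamini-Hochberg over 14838 genes). Among all genes, 1.31% passed, 0.863% higher and 0.445% lower. At an unadjusted p under 0.05 there were 8 members (14%), against 14.5% of all genes. Limma-voom called 0 members (0.997% of all genes) and DESeq2 called 3 (Plxna2, Sema3f and Sema6c), or 5.26% against 5.92% of all genes. At an edgeR adjusted p under 0.1 only Sema3f passed, where 2.89% of all genes did. In 6 members every library labelled GLUT1EC-/- was above every WT library, and in 6 it was below, 10.5% each, against 11.7% and 11.2% of all genes. These shares are near the background, and the median log2 fold change was 0.02 over the members and 0.01 over all genes (-0.044 and -0.0062 without GLUT1EC-/- 2). Without GLUT1EC-/- 2, Sema3f and Plxna2 passed (edgeR), 3.51% of the members against 5.73% of all genes.

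The test had limited reach for single members. The 95% interval of the fold lay within 2-fold in either direction for 33 of the 57 tested members, and within 1.5-fold for 10. Of the intervals that reached past 2-fold, those of Plxna2, Sema6b and Sema6c did not hold 1 and the rest did. The 8 members without a test had 11 to 67 counts in all: Sema3a, Sema4f, Epha5, Epha8, Epha10, Ephb2, Slit1 and Unc5cl.

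**Figure D2:**
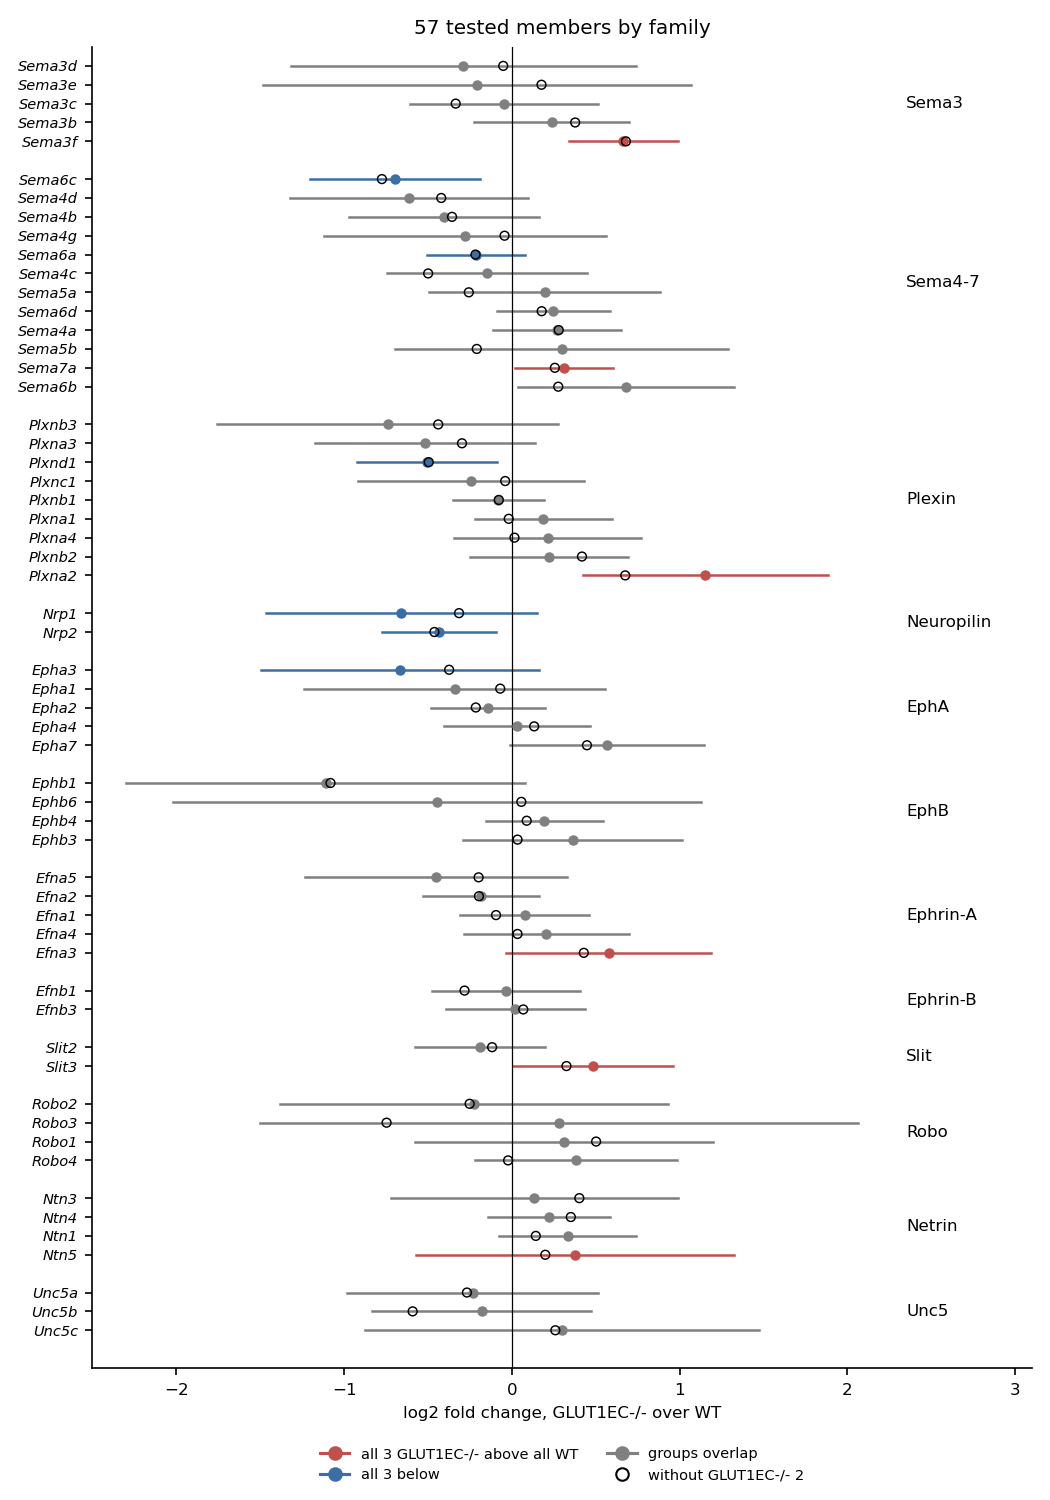
Log2 fold change of each tested member, libraries labelled GLUT1EC-/- over WT, with its 95% interval, grouped by family; red and blue mark members whose groups do not overlap, and open circles give the value without GLUT1EC-/- 2. Plxna2 has the largest value on the right (1.15), and its open circle is at 0.68.

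Class 3 semaphorins are the secreted ligands. The 5 tested had a median log2 fold change of -0.05, 2 higher and 3 lower by value. The sign was not stable: the median was 0.18 without GLUT1EC-/- 2, and 0.24 within the 200s and -0.15 within the 500s. These series are of animal numbers: WT 1, WT 2 and GLUT1EC-/- 1 are in the 200s, and WT 3, GLUT1EC-/- 2 and GLUT1EC-/- 3 in the 500s. Here and below, a value within the 200s therefore rests on GLUT1EC-/- 1 alone for the labelled knockouts. A value within the 500s rests on WT 3 alone for WT and includes GLUT1EC-/- 2. Sema3f, a ligand of Nrp2 that repels endothelial cells (chromosome 9, 107681500 to 107710475, minus strand, GRCm38 as in all positions here), had the smallest p of all members. It was at 48.9, 58.0 and 58.9 CPM in WT and at 79.4, 84.8 and 98.6 CPM in the labelled knockouts. The groups did not overlap, and the 3 labelled knockouts lay close together. In edgeR this was a log2 fold change of 0.66 (SE 0.14, adjusted p = 0.073), or 1.58-fold (95% interval 1.27 to 1.98). Without GLUT1EC-/- 2 it was 0.68 (edgeR adjusted p = 0.0147), and over all alternatives the adjusted p ran from 0.00188 to 0.385. Within the animals numbered in the 200s and in the 500s, the difference in log2 CPM was 0.58 and 0.63.

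Sema3c, the most abundant class 3 member and a ligand of both neuropilins, was at 428, 352 and 273 CPM in WT and at 280.3, 461 and 278 CPM in the labelled knockouts. The groups overlapped, with GLUT1EC-/- 2 the highest library of all. Its fold was 0.969, with a 95% interval of 0.657 to 1.43. Sema3b was at 17.3 ± 2.83 and 20.4 ± 4.15 CPM (SD, n = 3 each). Sema3e, the direct ligand of Plxnd1, was low, at 0.854 ± 0.336 and 0.737 ± 0.414 CPM, from 174 counts in all.

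The transmembrane and lipid-anchored semaphorins of classes 4 to 7 were 13 members, 12 of them tested, with 6 higher and 6 lower by value and a median log2 fold change of 0.02 (-0.21 without GLUT1EC-/- 2). Sema7a, which is linked to the membrane by a lipid anchor and signals through plexin C1 and integrins, was at 1206, 1229 and 1153 CPM in WT. It was at 1415, 1585 and 1455 CPM in the labelled knockouts. All 3 labelled knockouts were above all WT libraries, and the difference was small beside the level. The fold was 1.24 with a 95% interval of 1.01 to 1.52 (0.31 on the log2 scale, SE 0.13, edgeR adjusted p = 0.309). Within the 200s and the 500s the differences were 0.22 and 0.40. Its receptor Plxnc1 was at 3.41 ± 0.188 CPM in WT and 2.88 ± 0.934 CPM in the other group.

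Class 6 semaphorins bind class A plexins, and their members pointed different ways. Sema6c, at 5.23, 5.43 and 5.67 CPM in WT, was at 2.77, 3.67 and 3.63 CPM in the labelled knockouts. The 2 groups lay apart with little spread inside each. Its log2 fold change was -0.70 (SE 0.22, adjusted p = 0.195 in edgeR), and the DESeq2 adjusted p of 0.0488 was the lowest over all alternatives, which reached 0.539. Sema6a was at 183, 196 and 218 CPM in WT and at 179, 171 and 165 CPM in the other group, so the groups came close without overlapping (log2 fold change -0.21, edgeR adjusted p = 0.486). Sema6b was at 70.0, 80.8 and 74.5 CPM in WT and at 107, 179 and 75.5 CPM in GLUT1EC-/- 1 to 3. Here GLUT1EC-/- 3 lay inside the WT range, and the log2 fold change of 0.68 (edgeR adjusted p = 0.316) was 0.28 without GLUT1EC-/- 2. Sema6d was at 96.7 ± 13.4 and 115 ± 10.4 CPM.

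Among class 4 members, Sema4c, a ligand of plexin B2, showed how far GLUT1EC-/- 2 could differ from its group. Sema4c was at 216, 204 and 165 CPM in WT and at 157, 252 and 120.2 CPM in GLUT1EC-/- 1 to 3. GLUT1EC-/- 1 and 3 were below all WT libraries and GLUT1EC-/- 2 was above them. It had a log2 fold change of -0.15 with all libraries and -0.50 without GLUT1EC-/- 2 (edgeR adjusted p = 0.824 and 0.116; 0.116 to 0.961 over all alternatives). Sema4d, a ligand of plexin B1 that lymphocytes and oligodendrocytes also make, was at 10.7, 16.8 and 8.15 CPM in WT and at 9.24, 5.47 and 8.56 CPM in the other group. The groups overlapped (log2 fold change -0.61, edgeR adjusted p = 0.423). The summed level of 12 lymphocyte markers was 26.6 to 32.7 CPM in WT and 12.5 to 23.9 CPM in the labelled knockouts, and their part in the Sema4d value was not tested.

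**Figure D3:**
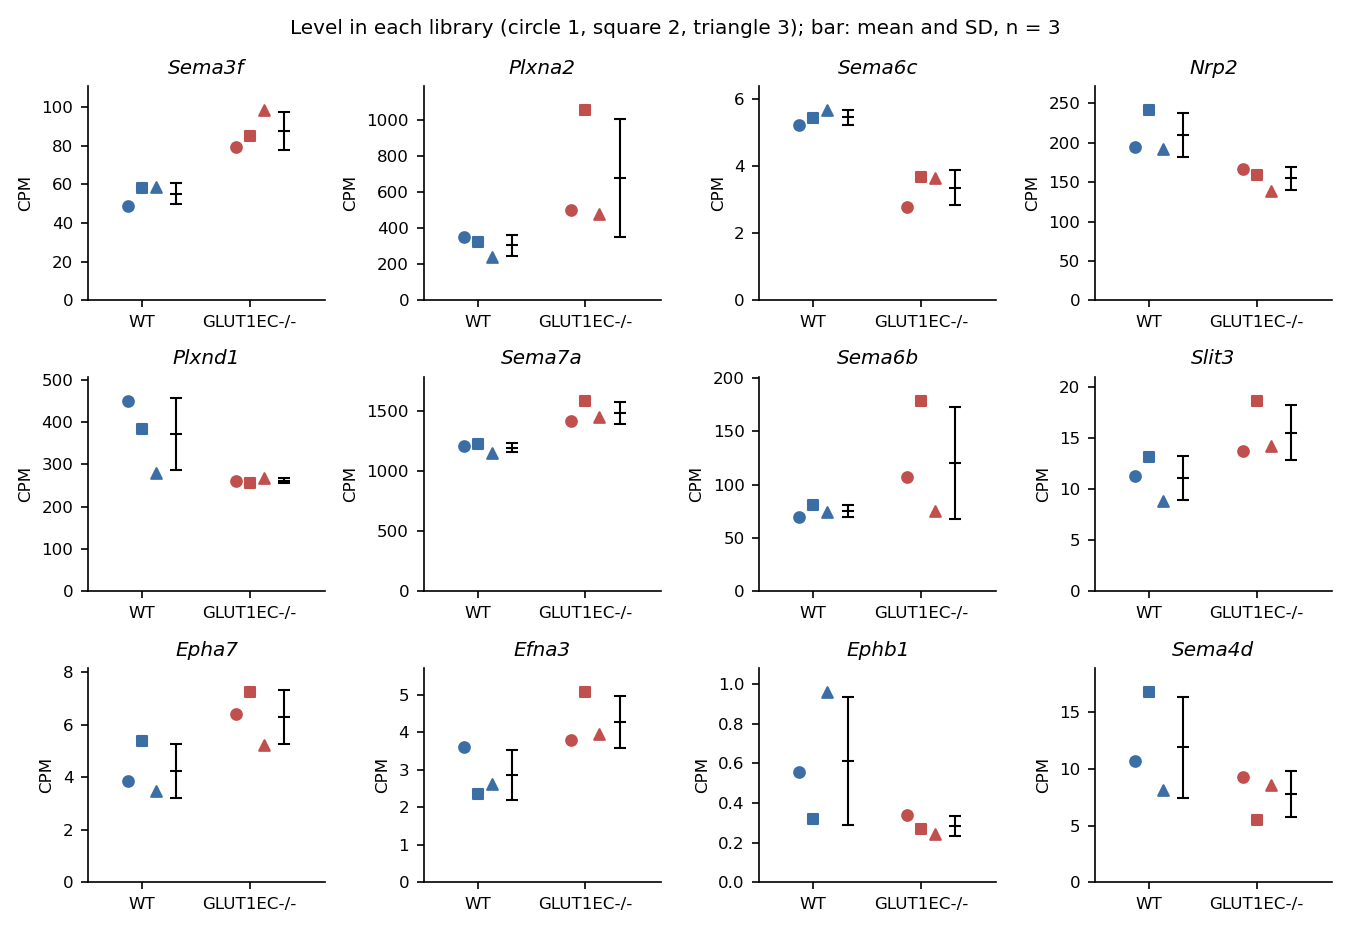
CPM of the 12 members with the smallest p in each of the 6 libraries, WT in blue and libraries labelled GLUT1EC-/- in red, with the mean and SD of 3 libraries beside them. Sema3f, Plxna2, Sema6c, Nrp2, Plxnd1, Sema7a, Slit3 and Efna3 have groups that do not overlap; in Plxna2 and Sema6b the square (GLUT1EC-/- 2) lies far above the other libraries.

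Plexins are the signalling receptors of semaphorins. All 9 were tested, 4 higher and 5 lower by value, with a median log2 fold change of -0.08. Plxna2, a receptor of class 3 and class 6 semaphorins (chromosome 1, 194618218 to 194816869, plus strand), had the largest value among the members. It was at 351, 325 and 238 CPM in WT and at 502, 1055 and 476 CPM in GLUT1EC-/- 1 to 3. Every labelled knockout was above every WT library, and GLUT1EC-/- 2 lay far above the other libraries of its group. This gave 2.22-fold (95% interval 1.34 to 3.69), or 1.15 on the log2 scale (SE 0.32, edgeR adjusted p = 0.146). Without GLUT1EC-/- 2 the log2 fold change was 0.68 (edgeR adjusted p = 0.0456; 0.0108 to 0.424 over all alternatives). Within the 200s and the 500s the differences were 0.57 and 1.57, the latter with GLUT1EC-/- 2 included.

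Plxnd1, the endothelial receptor of Sema3e (chromosome 6, 115954811 to 115995005, minus strand), had the highest mean level per length of the plexins over the 6 libraries, though Plxna2 was above it in GLUT1EC-/- 2. Its levels were 450.2, 383 and 280.3 CPM in WT and at 262, 256 and 267 CPM in the labelled knockouts. The labelled knockouts were nearly equal, and WT 3 lay close above them while WT 1 and WT 2 were well above. For Plxnd1 edgeR gave a log2 fold change of -0.50 (SE 0.18, adjusted p = 0.249), and it was -0.50 without GLUT1EC-/- 2. Within the 200s the difference was -0.67 and within the 500s -0.10. Plxnb2, at 122 ± 8.37 and 143 ± 39.1 CPM, and Plxna1, at 62.1 ± 5.44 and 70.8 ± 16.2 CPM, had overlapping groups. Plxnb1, the receptor of Sema4d, was the steadiest, at 62.9 ± 3.95 and 59.5 ± 2.34 CPM, with a fold interval of 0.783 to 1.14. The least abundant plexins, Plxna3, Plxnc1 and Plxnb3, had means of 1.57 to 6.10 CPM in WT and 0.935 to 4.26 CPM in the other group, with overlapping groups.

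Both neuropilins were lower in every library labelled GLUT1EC-/- than in every WT library, and neither passed. Nrp1, the co-receptor of VEGF-A and of Sema3a (chromosome 8, 128358604 to 128503363, plus strand), was at 316, 289 and 262 CPM in WT and at 219.9, 82.1 and 247 CPM in GLUT1EC-/- 1 to 3. GLUT1EC-/- 2 was far below the rest, and GLUT1EC-/- 3 was just under WT 3. For Nrp1 the difference was -0.66 on the log2 scale (SE 0.35, edgeR adjusted p = 0.448) and -0.31 without GLUT1EC-/- 2 (edgeR adjusted p = 0.196; 0.196 to 0.795 over all alternatives). Nrp2, the receptor of Sema3f and of VEGF-C (chromosome 1, 62703285 to 62818695, plus strand), was at 195, 242 and 192 CPM in WT and at 167, 159.6 and 139 CPM in the other group. The SD of Nrp2 was 28.0 CPM in WT and 14.3 CPM in the other group, with WT 2 well above the other libraries. The fold was 0.740 with a 95% interval of 0.586 to 0.935 (log2 fold change -0.43, SE 0.15, edgeR adjusted p = 0.226). Within the 200s and the 500s the differences were -0.38 and -0.37 for Nrp2 and -0.46 and -0.88 for Nrp1.

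Eph receptors and ephrins signal by contact between cells, and no member of either family passed the test. Of 8 EphA receptors, 5 were tested, with a median log2 fold change of -0.14. Epha2, the dominant EphA receptor of these cells, was at 422, 399 and 361 CPM in WT and at 378, 391 and 303 CPM in the labelled knockouts. The ranges overlapped, and the fold of 0.908 had a 95% interval of 0.717 to 1.15. Epha4, a receptor of both ephrin classes, was at 136, 146 and 97.9 CPM in WT and at 151, 109 and 128 CPM in the other group, which overlapped (fold 1.02, 95% interval 0.755 to 1.38). Epha7, a receptor best known from the developing forebrain, was at 4.25 ± 1.02 and 6.29 ± 1.02 CPM (log2 fold change 0.57, edgeR adjusted p = 0.352). Epha3 was at 2.78, 2.69 and 2.51 CPM in WT and at 2.01, 0.896 and 2.11 CPM in the other group, lower in every library (log2 fold change -0.67, and -0.37 without GLUT1EC-/- 2).

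Of 5 EphB receptors, 4 were tested, with a median log2 fold change of -0.13. Here too the sign was not stable, with medians of 0.045 without GLUT1EC-/- 2, 0.091 within the 200s, -0.64 within the 500s and 0.27 for members with 1 CPM in 3 libraries. Ephb4, the venous receptor of ephrin-B2, was at 186, 166 and 205 CPM in WT and at 182, 240.7 and 214 CPM in the labelled knockouts. The groups overlapped, and the fold of 1.14 had a 95% interval of 0.898 to 1.46. Ephb3 was at 3.46 ± 0.140 and 4.45 ± 1.56 CPM, the second value raised by GLUT1EC-/- 2 at 6.24 CPM. Ephb1 had the lowest fitted log2 fold change of all members, -1.11 (SE 0.52, edgeR adjusted p = 0.385), from 99 counts in all. Its levels of 0.557, 0.321 and 0.961 CPM in WT and at 0.339, 0.269 and 0.244 CPM in the other group overlapped. Ephb6 was at 0.866 to 1.08 CPM in WT and at 1.15, 0.0896 and 0.839 CPM in GLUT1EC-/- 1 to 3, so only GLUT1EC-/- 2 was low.

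The 5 ephrin-A ligands had a median log2 fold change of 0.08 and the 2 ephrin-B ligands of -0.01 (-0.094 and -0.11 without GLUT1EC-/- 2). Efna1, the main ligand of Epha2 and known to respond to inflammatory signals in endothelium, was at 78.7, 68.7 and 85.2 CPM in WT and at 76.3, 99.6 and 69.6 CPM in the labelled knockouts. No separation was seen, and the fold of 1.06 had a 95% interval of 0.809 to 1.38. Efna3 was at 3.62, 2.37 and 2.61 CPM in WT and at 3.79, 5.08 and 3.95 CPM in the other group, a narrow gap without overlap (log2 fold change 0.58, SE 0.27, edgeR adjusted p = 0.38). Efna2 was at 43.6 ± 7.19 and 38.4 ± 2.22 CPM, Efna4 at 6.48 ± 0.772 and 7.48 ± 1.42 CPM, and Efna5 at 4.82 ± 0.962 and 3.52 ± 1.45 CPM. Efnb1 was at 54.0, 55.7 and 55.8 CPM in WT, an almost constant level, and at 41.9, 70.4 and 49.3 CPM in GLUT1EC-/- 1 to 3, on both sides of it. Efnb3 was at 10.2 ± 1.60 and 10.3 ± 0.691 CPM.

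Slits are secreted ligands of Robo receptors. Slit3, which like Slit2 has a known role in vessels, was at 11.4, 13.1 and 8.87 CPM in WT and at 13.7, 18.7 and 14.2 CPM in the labelled knockouts. The groups did not overlap, by a margin between WT 2 and GLUT1EC-/- 1 that was small beside the spread (log2 fold change 0.48, SE 0.21, edgeR adjusted p = 0.338). Within the 200s the difference was 0.17 and within the 500s 0.87. Slit2 was at 11.9 ± 0.486 and 10.4 ± 1.39 CPM, and Slit1, which neurons make, was at 0.129 to 0.177 CPM by group mean.

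Robo4, a Robo receptor known from endothelium (chromosome 9, 37401897 to 37415115, plus strand), was at 633, 597 and 612 CPM in WT and at 635, 1185 and 579 CPM in GLUT1EC-/- 1 to 3. GLUT1EC-/- 1 and 3 were close to the narrow WT range, and GLUT1EC-/- 2 was far above it. Its difference was 0.38 on the log2 scale (SE 0.26, edgeR adjusted p = 0.551) with all libraries and -0.02 without GLUT1EC-/- 2 (edgeR adjusted p = 0.944; 0.259 to 0.944 over all alternatives). Robo3 lies next to Robo4 on the other strand (37415669 to 37433246) and had only 79 counts in all. It was at 0.248 to 0.380 CPM in WT and at 0.339, 0.837 and 0.0541 CPM in GLUT1EC-/- 1 to 3. GLUT1EC-/- 2 was the highest library for Robo3, as it was for 40.4% of the tested members. Robo1 and Robo2 were at 0.887 ± 0.132 and 0.511 ± 0.257 CPM in WT and at 1.10 ± 0.396 and 0.434 ± 0.0622 CPM in the other group.

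Netrins were the one ligand family in which all tested members were higher by value, 4 of 4, with a median log2 fold change of 0.28 and no call. Over all genes, 7647 of 14838 were higher by value, and the 95% fold interval of each netrin held 1. The direction of Ntn3 rested on GLUT1EC-/- 3, at 14.4 CPM: its log2 fold change was 0.13 with that library and -0.45 without it, and the differences inside the 2 number series were -0.14 (200s) and -0.10 (500s). Ntn1, the secreted ligand of Unc5b and Dcc, was at 131, 163 and 144 CPM in WT and at 169, 228 and 154 CPM in the labelled knockouts. GLUT1EC-/- 3 lay within the WT range (log2 fold change 0.33, SE 0.18, edgeR adjusted p = 0.446). Ntn4, a netrin of basement membranes, was at 74.0, 81.7 and 71.8 CPM in WT and at 92.7, 70.7 and 102 CPM in GLUT1EC-/- 1 to 3. Here GLUT1EC-/- 2 was the lowest library of all, and the log2 fold change was 0.22 with it and 0.35 without it (edgeR adjusted p = 0.57 and 0.0831; 0.0831 to 0.854 over all alternatives). Ntn3 was at 7.91 ± 1.09 and 8.68 ± 5.05 CPM and Ntn5 at 0.391 ± 0.0608 and 0.510 ± 0.103 CPM, the latter from 97 counts in all. Both share exon positions with another coding gene, Tbc1d24 on the same strand for Ntn3 and Sec1 on the opposite strand for Ntn5, so their counts are uncertain.

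Unc5b, the netrin receptor of endothelial tip cells, was at 210.2, 189 and 145 CPM in WT and at 127, 238.95 and 115 CPM in GLUT1EC-/- 1 to 3. As with Sema4c, GLUT1EC-/- 1 and 3 were below all WT libraries and GLUT1EC-/- 2 was above them. For Unc5b the value was -0.18 on the log2 scale (SE 0.28, edgeR adjusted p = 0.801) and -0.59 without GLUT1EC-/- 2 (edgeR adjusted p = 0.0664; 0.0664 to 0.987 over all alternatives). Unc5a was at 1.12 ± 0.0386 and 0.951 ± 0.153 CPM and Unc5c at 0.348 ± 0.152 and 0.425 ± 0.102 CPM.

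**Figure D4:**
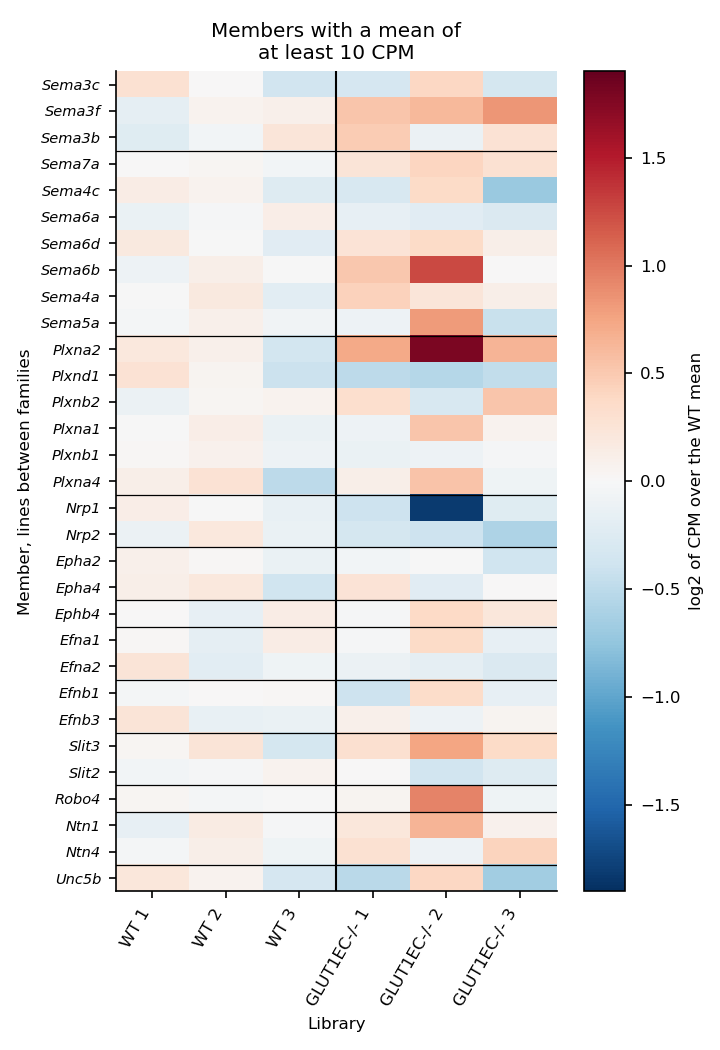
Log2 of the CPM in each library over the WT mean, for the 31 members with a mean of at least 10 CPM, in rows by family and columns by library. GLUT1EC-/- 2 holds the strongest colours, Plxna2 on the high side and Nrp1 on the low side, while the row of Sema3f has 1 direction in all 3 libraries labelled GLUT1EC-/-.

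Ligands and receptors known to bind each other are set side by side here by their fitted log2 fold changes, with no test of the pairs. Sema3f was higher by value where its receptor Nrp2 was lower, with log2 fold changes of 0.66 and -0.43. Plxna2 was at 1.15, and its class 6 ligands Sema6a and Sema6b were at -0.21 and 0.68. Ntn1 and Ntn4 were at 0.33 and 0.22 and Unc5b at -0.18. Efna1 and Epha2 were at 0.08 and -0.14. Slit2, Slit3 and Robo4, set together by family and not as an established binding pair, were at -0.19, 0.48 and 0.38. Without GLUT1EC-/- 2 the Robo4 value was -0.02. Over all tested ligands and receptors the median was 0.11 (17 of 30 higher by value) and -0.14 (12 of 27). Without GLUT1EC-/- 2 these medians were -0.0050 and -0.069. They were 0.049 and -0.12 within the 200s, and 0.093 and 0.043 within the 500s.

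Other genes of guidance pathways were read from 2 lists. Of 29 further ligands, receptors and co-receptors, 24 were tested; 2 rose and 1 fell, where 0.863% of all genes rose and 0.445% fell, and the median was -0.08. Lphn3 (now Adgrl3), the latrophilin that binds FLRT proteins and Unc5 receptors, rose from 23.8 ± 3.80 to 95.5 ± 16.6 CPM, 2.01 on the log2 scale (SE 0.18, edgeR adjusted p = 0.00997). Its levels were 25.6, 26.4 and 19.4 CPM in WT and at 93.5, 113 and 80.1 CPM in the labelled knockouts, a wide gap. Cd72, a receptor of Sema4d known from B cells and also made by microglia, rose from 0.745 ± 0.207 to 6.24 ± 1.47 CPM, 3.05 on the log2 scale (edgeR adjusted p = 0.0148). Nrcam, a cell adhesion molecule that serves as a co-receptor with Nrp2, fell from 7.27 ± 0.378 to 2.996 ± 0.264 CPM, a log2 change of -1.28 (edgeR adjusted p = 0.0296). None of these 3 passed when any WT library was left out. Of 61 genes of signal transduction below the receptors, 59 were tested with 0 calls in edgeR and limma-voom, 1 in DESeq2 (5.92% of all genes) and 8 at an unadjusted p under 0.05 (14.5% of all genes), and the median was 0.07 (-0.062 without GLUT1EC-/- 2). The 3 with the smallest p were Ablim1, an actin-binding protein, at 1384 ± 102 and 716 ± 266 CPM, Nfatc4 at 26.1 ± 1.25 and 37.6 ± 6.90 CPM, and the Rac exchange factor Tiam1 at 132 ± 28.3 and 73.8 ± 29.7 CPM.

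Markers of other cell types differed between the groups while the members were compared. Over all genes 0.863% rose and 0.445% fell. Microglia markers rose for 3 of 15 tested (C1qb, C1qc and Trem2), with a summed level of 535 to 635 CPM in WT and 796 to 1735 CPM in the labelled knockouts, beside the rise of Cd72. Fibroblast markers rose for 1 of 9 tested (Dcn) and summed to 103 to 122 CPM and 172 to 406 CPM. Oligodendrocyte markers summed to 767 to 800.5 CPM in WT and to 1492, 3268 and 1249 CPM in GLUT1EC-/- 1 to 3, highest in GLUT1EC-/- 2. Proliferation markers rose for 2 of 8 tested (Mki67 and Kif15), with a median of 2.81 and sums of 7.42 to 12.2 CPM in WT and 23.6 to 86.3 CPM in the labelled knockouts. Of 12 astrocyte markers 1 rose, Gfap, from 5.65 ± 0.232 to 44.3 ± 13.4 CPM, and of 11 monocyte and macrophage markers 1 fell, Treml4, from 12.3 ± 8.19 to 0.276 ± 0.222 CPM. Of 11 lymphocyte markers tested, 1 fell, Cd79a. Choroid plexus markers summed to 3632 to 6436 CPM in WT and 2920.3 to 5413 CPM in the labelled knockouts, and smooth muscle markers to 2242 to 2930.3 and 2111 to 2776 CPM. Neuron markers summed to 113 to 127 CPM and 82.3 to 141 CPM, and pericyte markers to 1139 to 1344 CPM and 1285 to 1627 CPM. No listed marker of these types was at 0 in all libraries. The part of these cells in the member values was not tested.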

How the data were processed

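RNA was sequenced from 6 libraries (stranded TruSeq mRNA kit, single-end NovaSeq reads, per the labels' protocols). The deposited values are raw counts per gene symbol, made by the authors with STAR and featureCounts on GRCm38, per the submitters' processing notes; versions, annotation and strand setting are not given in the sources used here. Of the 65 members, 5 share exon bases with another coding gene, and without a stated strand setting these counts are uncertain. Positions and exon lengths come from GENCODE M21 on GRCm38.

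Counts were tested with edgeR 4.0.16 (R 4.3.3; quasi-likelihood F test, robust, TMM scaling, filterByExpr with minimum count 10 and minimum total 15) on the whole table of 14838 genes, with genotype as the only term and Benjamini-Hochberg adjustment at 0.05. The standard error is the log2 fold change over the square root of F, and intervals are 95% t intervals from it. CPM uses TMM factors and is given as mean ± SD. The p-values measure the spread between 3 libraries per group, which have separate animal numbers. Differences within the number series (200s, 500s) are of log2 CPM with a prior count of 2, and nothing states what the series stands for. The 200s hold a single labelled knockout (GLUT1EC-/- 1) and the 500s a single WT library (WT 3), so these differences are not replicated comparisons.

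Members, lists and tests were chosen with earlier results of these data known. Named genes are the 12 members with the smallest p, the 2 most abundant per length in each family, members with a known role in brain vessels, and in each pathway list the called genes or the 3 with the smallest p; other members are named for completeness. Alternatives were RLE, upper-quartile and no scaling, DESeq2 1.42.0, limma-voom (limma 3.58.1), non-robust dispersion, no filter, 1 CPM in 3 libraries, number series or sex (from Xist and Ddx3y counts) as a term, each library left out, and an adjusted p of 0.1. The tests were also run on simulated counts with 200 changed genes. No simulated library stood apart as GLUT1EC-/- 2 does, so the simulation cannot show how the tests behave with such a library.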

Additional observations from a re-analysis of the deposited data

How the results depend on the processing

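The absence of calls among the members held under RLE, upper-quartile and library-size scaling, limma-voom, non-robust dispersion, both other filters, and number series or sex as a term. DESeq2 called 3 members, a threshold of 0.1 called 1, and leaving out 1 library gave 0 to 2. All genes called were 194, but 879 with DESeq2, 429 at 0.1, 14 with number series and 113 with sex as a term, and 0 to 862 with 1 library left out (0, 1 and 5 without WT 1, 2 and 3; 32 and 862 without GLUT1EC-/- 1 and 2). The list of other ligands and receptors had 6 calls with DESeq2, 1 with number series and 0 to 5 with 1 library left out. The signal transduction list had 1 with DESeq2 and 0 to 1. The cause was not tested.

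Of 38 named genes, 28 kept their sign under every alternative. The other 10 were not called under any setting. Epha4 was at -0.0049 with library size alone, and Efnb3 at -0.013 with upper-quartile scaling and -0.022 with library size alone. With 1 library left out the log2 fold change ranged from -0.33 to 0.11 (Sema3c), -0.55 to 0.18 (Sema3e), -0.50 to 0.067 (Sema4c), -0.13 to 0.14 (Epha4), -0.094 to 0.18 (Efna1), -0.28 to 0.12 (Efnb1), -0.047 to 0.15 (Efnb3), -0.02 to 0.57 (Robo4), -0.014 to 0.50 (Robo1) and -0.59 to 0.010 (Unc5b). No paired analysis was possible because the labels give animals numbers of their own and tie no WT animal to a labelled knockout. Members with few counts, such as Ephb1, limit what depth can show.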
